A study of Mus musculus with 108 samples.

Results

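Gluconeogenesis, the route by which liver builds glucose from pyruvate and amino acids, was described through 8 genes: Pcx, Pck1, Fbp1, G6pc, Slc37a4, Tat, Gpt and Got1. They were taken by symbol from 3 deposited tables of mouse liver RNA-seq, with the most abundant transcript standing for each symbol, and all 8 of 8 were found among 25125 symbols. The wild-type table held 72 libraries from male C57BL/6J (B6) and 129S1/SvImJ (129) mice on normal chow or on a high fat and sucrose diet, called high-fat diet below. Liver was collected at zeitgeber times ZT2, ZT6, ZT10, ZT14, ZT18 and ZT22, that is, in hours after lights-on, with 3 libraries per strain, diet and time. A second table held 18 libraries from male 129S1/SvImJ mice labelled Errg-Cre on the same high-fat diet. The last table held 18 libraries from male mice labelled Esrrg LKO, the study's hepatocyte-specific knockout of the nuclear receptor gene Esrrg, on the same diet. The titles of these samples give the condition as diet-induced obesity, where the wild-type titles read high-fat diet. Their strain is B6 in the sample titles and B6S1/SvImJ in the strain label. The columns of that table carry another heading, and they were assigned to the knockout because the sample descriptions name that table and because time and replicate number match. The labels used here do not name the agent that delivered Cre or the promoter that drove it, and do not say that the 3 libraries of a group came from separate animals, so a p-value measures the spread between libraries. No control of the Errg-Cre or Esrrg LKO mice was analysed here, and genotype was therefore not tested.

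Each of the 8 products has a defined place in the route. Pyruvate carboxylase (Pcx) makes oxaloacetate in mitochondria, cytosolic phosphoenolpyruvate carboxykinase (Pck1) turns oxaloacetate into phosphoenolpyruvate, fructose-1,6-bisphosphatase (Fbp1) bypasses the phosphofructokinase step, and the catalytic subunit of glucose-6-phosphatase (G6pc) releases free glucose inside the endoplasmic reticulum after the transporter Slc37a4 has brought glucose-6-phosphate there. Tyrosine aminotransferase (Tat), alanine aminotransferase (Gpt) and cytosolic aspartate aminotransferase (Got1) feed amino acid carbon into the route or move oxaloacetate between compartments as aspartate. In liver, glucagon acting through cyclic AMP and glucocorticoids are known to raise Pck1, G6pc and Tat transcription in fasting, insulin lowers it, and the circadian clock adds a daily course.

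Values are normalised read numbers per transcript, which the authors had brought to 1 common distribution within each table, so every library of a table sums to the same total (10837743 in the wild-type table) and the sequencing depth of a library is unknown. Levels are compared across the wild-type sets only, since the tables were normalised separately. Among wild-type libraries, B6 chow ZT14 replicate 3, 129 chow ZT22 replicate 3 and B6 high-fat ZT6 replicate 1 stood apart with 14.8%, 6.95% and 3.25% of the tested genes below 1. In B6 high-fat ZT22 replicate 3 the acute phase gene Saa1 stood at 110328, against at most 51281 in the other 107 libraries. Libraries also differed in how steeply their values depended on transcript GC content. This GC slope, in log2 units per 10 GC points relative to the table mean, was -0.43 ± 0.46 (SD, n = 18) in B6 chow, 0.19 ± 0.13 in B6 high-fat, 0.10 ± 0.55 in 129 chow and 0.14 ± 0.15 in 129 high-fat liver. Values with the trend on GC content and length removed are therefore given beside the results that moved with it. Reads on the microRNA row Mir6236 ranged from 32.8 to 1171 in B6 chow, 915 to 91012 in B6 high-fat, 27.7 to 61431 in 129 chow and 294 to 4029.7 in 129 high-fat liver. In 129 chow they went with the time of day, from 27.7 to 663 at ZT2 and ZT6 and from 39055 to 61431 at ZT18 and ZT22. A fit with this value as a covariate is given beside the calls it changed. The covariate can hardly be told apart from diet in B6 or from time of day in 129 chow.

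The median hepatocyte marker sum moved with diet in opposite directions in the strains, with overlapping ranges. It went from 1365191 (1062691 to 1437031) in B6 chow to 415294 (284187 to 1499823) in B6 high-fat liver. In 129 it went from 903654 (421883 to 1493807) to 1380652 (665435 to 1446286). The most abundant markers weigh most in such a sum. Marker by marker, the median diet difference was -0.05 (log2) in B6 and 0.14 in 129, against -0.06 and 0.04 over all genes. Of the 8 hepatocyte markers tested, 2 rose and 3 fell with diet in B6, and 1 rose and 0 fell in 129. Marker counts here and below are to be read against all genes. In B6, 27.5% of all genes were higher and 32.7% lower with diet. In 129, 10.9% were higher and 7.45% lower. The adipocyte sum was 3.17 (0 to 8.20) in B6 chow and 72.8 (0.106 to 260.0) in B6 high-fat liver, where Cfd rose from 2.17 ± 2.32 to 89.5 ± 65.0 (SD, n = 18), while Adipoq, Lep and Plin1 had medians under 1 in each wild-type set. The neutrophil sum was at most 13.5 in B6 chow and reached 14558 in a B6 high-fat library, at a median of 5.46, with Ly6g under 1 in the median. The kidney sum reached 106 in B6 chow and 33.1 in B6 high-fat liver, with Umod and Slc34a1 under 1 in the median. The Kupffer cell marker sum moved with diet, from a median of 1276 (789 to 1945) in B6 chow to 1921 (1126 to 5309) in B6 high-fat liver and from 836 (588 to 2352) to 1242 (843 to 2002) in 129, with 5 of 7 markers higher in each strain. The stellate cell sum went from 1562 (1230.1 to 1806) to 1826 (1479.6 to 3108) in B6, where 4 of 5 markers rose. Periportal hepatocytes, the zone where gluconeogenesis is strongest, have 5 markers in the list used, of which 1 rose and 3 fell with diet in B6 and 3 fell in 129. The part of these cell mixtures in the results below was not tested, and in bulk liver fewer cells of a type and less RNA per cell cannot be told apart.

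Promoters are shown for 3 members whose daily course or its change with diet passed a test in wild-type liver. Slc37a4 was chosen by rule (a daily rhythm in at least 3 wild-type sets), and Pck1 and G6pc were chosen after their values were seen. The sequences are the 250 bases before the RefSeq start on the plus strand of GRCm38.p6. For Slc37a4 the start used lies 4 bases past the start of the transcript measured, and its positions are counted from the start used. Capitals mark matches on either strand to the letters searched, which were TGACG (core of the cyclic AMP response element), TTACGTAA (D-box, bound by Dbp and its relatives), CACGTG (E-box), AAGGTCA (site of the estrogen-related receptors), GTAAACA (FOXO site) and AGAACA (core of the glucocorticoid receptor site).
Pck1, chr2:173152823-173153072, plus strand: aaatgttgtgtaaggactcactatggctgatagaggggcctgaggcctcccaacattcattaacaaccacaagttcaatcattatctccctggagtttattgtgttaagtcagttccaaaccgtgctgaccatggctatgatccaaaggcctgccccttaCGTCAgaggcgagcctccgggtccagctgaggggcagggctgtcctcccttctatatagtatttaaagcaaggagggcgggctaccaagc
G6pc, chr11:101367466-101367715, plus strand: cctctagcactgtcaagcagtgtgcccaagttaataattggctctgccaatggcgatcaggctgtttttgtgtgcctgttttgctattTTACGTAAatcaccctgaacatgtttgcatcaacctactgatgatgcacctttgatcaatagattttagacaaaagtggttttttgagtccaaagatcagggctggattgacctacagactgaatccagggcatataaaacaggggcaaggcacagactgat
Slc37a4, chr9:44396849-44397098, plus strand: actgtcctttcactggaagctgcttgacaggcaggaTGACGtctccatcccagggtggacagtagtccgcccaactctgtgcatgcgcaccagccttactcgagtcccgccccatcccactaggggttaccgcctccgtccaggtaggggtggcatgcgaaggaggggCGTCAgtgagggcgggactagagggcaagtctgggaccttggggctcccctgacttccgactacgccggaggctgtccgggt
In Pck1 the core TGACG lay on the opposite strand with its first base at -90, and Slc37a4 held it at -214 on the same strand and at -82 on the opposite strand. This core occurs in 17.7% of the 32817 promoters searched. The G6pc window held the D-box at -162, which 0.113% of the promoters hold. Of the other members with an entry, Pcx had an E-box at -248 (6.02% of promoters) and Got1 an AAGGTCA at -245 (4.08%). Fbp1 and Tat held none of the 6 strings in this window. GTAAACA and AGAACA, held by 3.16% and 16.1% of promoters, were in none of these windows. A match is a description of the letters and not a measured site.

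High-fat diet raised 4 of the 8 enzymes and lowered 1 in B6 liver, and raised 2 and lowered 1 in 129 liver. In B6, Pcx, Gpt, Slc37a4 and Fbp1 rose and Tat fell, at an adjusted p below 0.05 by limma over the 11287 genes tested, whereas 60.2% of all genes passed, 27.5% higher and 32.7% lower. In 129, Pcx and Slc37a4 rose and Tat fell, where 2071 of the 11287 genes passed, 10.9% higher and 7.45% lower. With the trend on GC content and length removed, the share of higher genes among those that passed in 129 moved from 59.4% to 48.5%, and the same 3 enzymes passed with Got1 beside them. The median diet difference of the 8 enzymes was 0.40 (log2) in B6 against -0.06 over all genes, and 0.06 in 129 against 0.04. The diet response differed between the strains for 4 of 8 enzymes (Pcx, Gpt, Fbp1 and Got1), each more negative in 129 than in B6, where 34.4% of all genes differed, 2272 higher and 1609 lower. With the GC and length trend removed, the split of all genes moved from 58.5% to 40.0% higher among those that differed, and 3 of the 4 enzymes passed, without Got1. Under the Mir6236 covariate 1 of 8 enzymes passed for diet in B6 (Fbp1), 3 of 8 for diet in 129 and 0 of 8 for the difference between responses. Over all genes 565, 2607 and 14 then passed. These comparisons share libraries, since the same chow and high-fat libraries enter each of them.

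On chow and averaged over the 6 times, 7 of the 8 enzymes were higher in 129 than in B6 liver and G6pc did not pass, against 52.9% of all genes, 25.4% higher and 27.5% lower. The median strain difference of the 8 was 0.60 (log2) and that of all genes -0.01. Of the 7, Tat was higher at 6 of 6 times and each other enzyme at 5 of 6. With the GC and length trend removed 6 of 8 passed, without Pck1 and Slc37a4 and with G6pc, and with the Mir6236 covariate 1 of 8 passed, Got1. On high-fat diet only Gpt passed, lower in 129, where 32.3% of all genes passed, 19.0% higher and 13.3% lower. Under the Mir6236 covariate Tat (0.56, adjusted p = 0.0431) and Slc37a4 (0.39, adjusted p = 0.0202) passed there in its place, both higher in 129. The plot of the diet differences shows both strains beside the values with the GC trend removed.

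**Figure D1:**
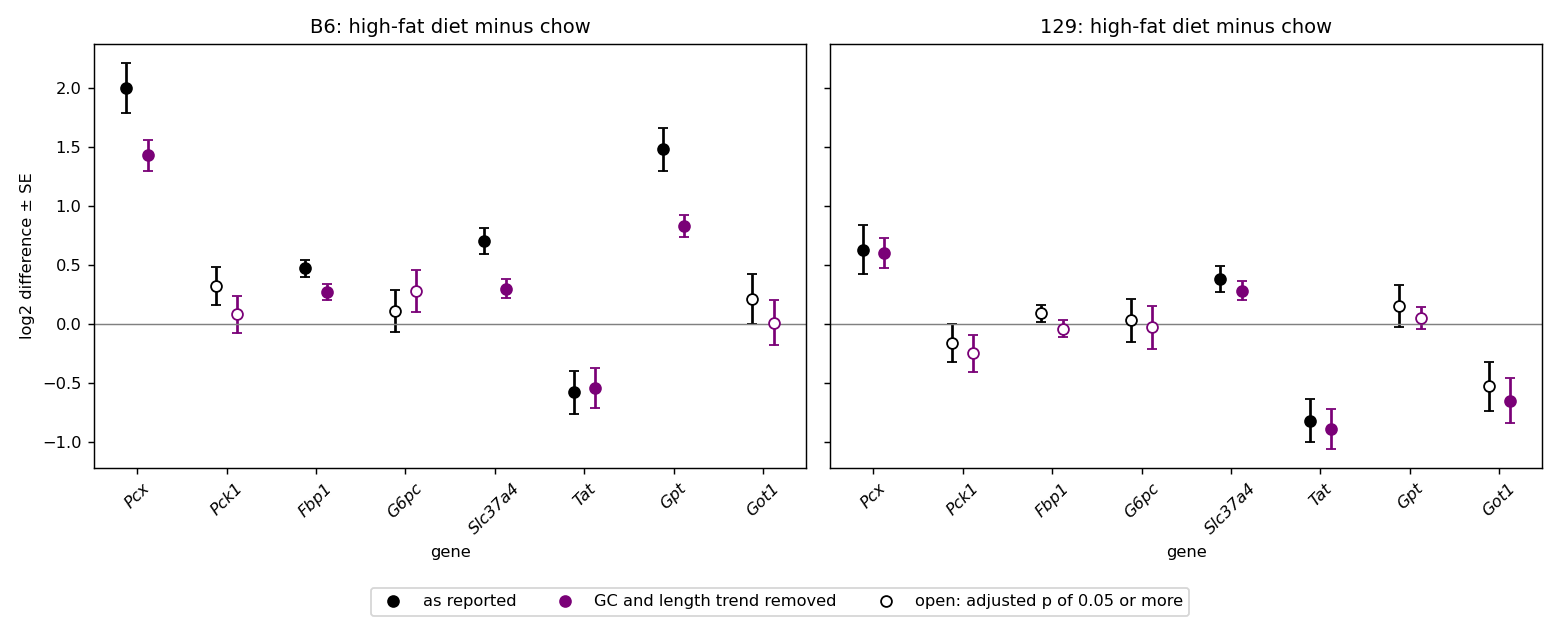
Difference between high-fat diet and chow for each of the 8 enzymes (x axis), in log2 units averaged over 6 times (y axis), with bars of 1 SE, for B6 (left) and 129 (right). Black points are the values as reported and purple points those with the GC and length trend removed, and open points did not pass. Pcx stands at 2.0 in B6 and 0.63 in 129, and Tat lies below 0 in both.

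Pcx (chr19:4510472-4621752, plus strand, in mm10, as are all gene positions below), which supplies oxaloacetate to the route, changed most with diet in B6. Over the 18 libraries of a set, its lowest, median and highest values were 167, 574 and 1786 in B6 chow and 1603, 2119 and 3774 in B6 high-fat liver, so that 17 of 18 high-fat libraries lay above every chow library. The mean rose from 737 ± 503 to 2386 ± 618 (SD, n = 18), a log2 difference of 2.0 ± 0.21 (SE, adjusted p = 3.79e-11), and was higher at 6 of 6 times. In 129 the lowest, median and highest values were 212, 1805 and 2834 on chow and 1273, 1841 and 2961 on high-fat diet, so the groups overlapped almost throughout. Here the difference was 0.63 ± 0.21 (adjusted p = 0.0303), and it missed the threshold when any of 6 libraries was left out (129 chow ZT2 replicate 3, ZT6 replicate 1, ZT10 replicate 3 or ZT14 replicate 1, or 129 high-fat ZT10 or ZT14 replicate 1), with adjusted p up to 0.0757. The B6 and 129 responses differed by -1.37 ± 0.30 (adjusted p = 0.000578). On chow Pcx was 1.10 ± 0.21 higher in 129 than in B6 (adjusted p = 2.97e-05), and time by time the difference ran from -0.19 at ZT2 to 2.77 at ZT18.

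Pcx has 57.7% GC, and its level followed the GC slope of the library across the wild-type table, as the plot of level against GC slope shows. With the GC and length trend removed, the diet difference was 1.43 ± 0.13 in B6 (adjusted p = 1.77e-13) and 0.60 ± 0.13 in 129, the strain difference on chow was 0.60 ± 0.13, and the difference between responses was -0.84 ± 0.18 (adjusted p = 0.000842). With Mir6236 as a covariate the B6 diet difference of Pcx was 0.69 ± 0.31 (adjusted p = 0.218), the strain difference on chow 0.22 (adjusted p = 0.683) and the difference between responses 0.17 (adjusted p = 0.955).

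**Figure D2:**
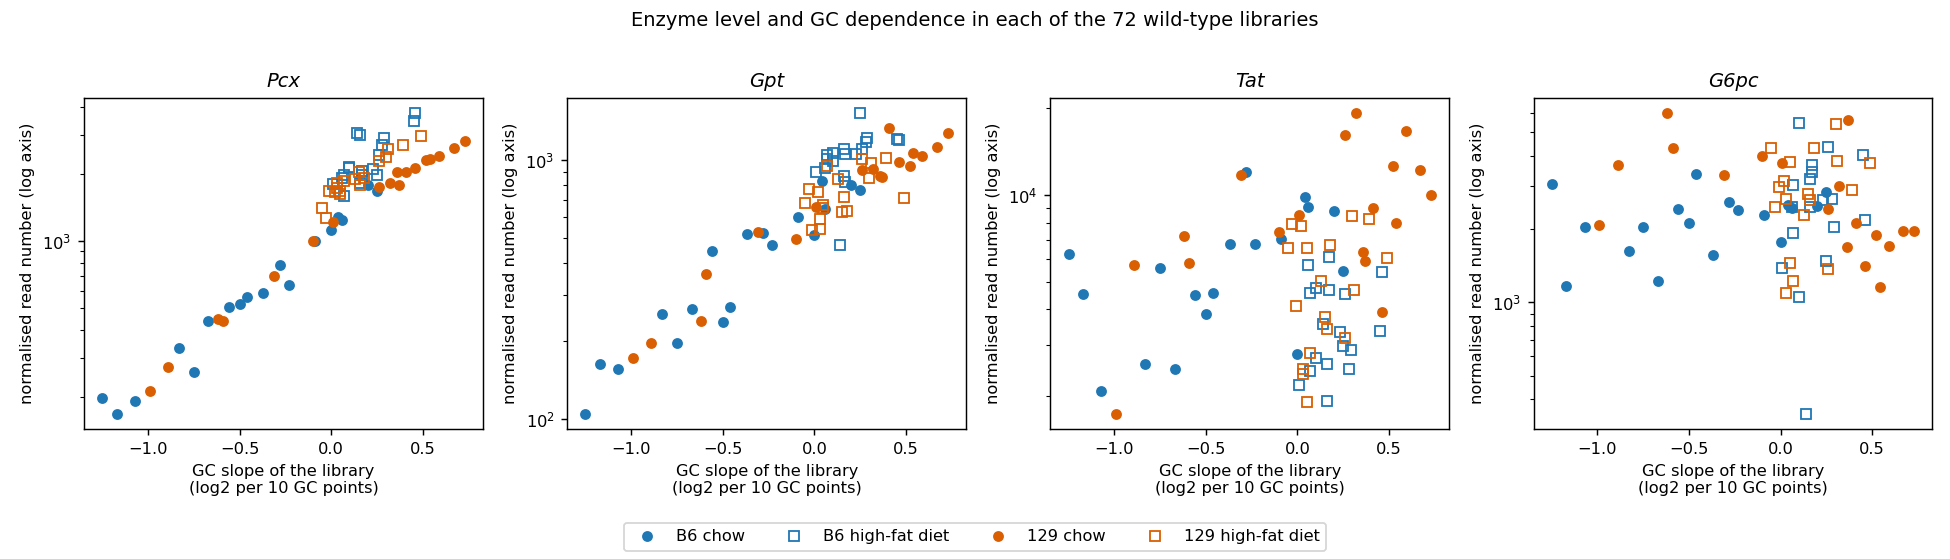
Normalised read number on a log axis against the GC slope of the library (log2 per 10 GC points), 1 point per wild-type library, for Pcx, Gpt, Tat and G6pc. Pcx and Gpt run along the GC slope through all 4 sets. Libraries with the lowest slopes, down to -1.25, are chow libraries, while Tat and G6pc scatter at any slope.

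Gpt (chr15:76696726-76699675, plus strand), which turns alanine from muscle into pyruvate, went with Pcx. Its lowest, median and highest values were 104, 457 and 830.4 in B6 chow and 469.7, 1055 and 1518 in B6 high-fat liver, and 16 of 18 high-fat libraries exceeded every chow library. The mean went from 430.5 ± 235 to 1039 ± 214 (n = 18), a difference of 1.48 ± 0.18 (adjusted p = 8.57e-10), higher at 6 of 6 times. In 129 the means were 774 ± 365 on chow and 751 ± 156 on high-fat diet, and the difference of 0.15 ± 0.18 did not pass (adjusted p = 0.621). The responses of the strains differed by -1.32 ± 0.25 (adjusted p = 0.000112). On chow Gpt was higher in 129 by 0.86 ± 0.18 (adjusted p = 6.79e-05), and time by time the difference ran from -0.18 at ZT2 to 1.68 at ZT18. On high-fat diet it was lower in 129 at 6 of 6 times, by -0.46 ± 0.18 (adjusted p = 0.0387), a call that was lost when any of 13 libraries was left out (adjusted p up to 0.0762). At 57.9% Gpt had the highest GC content of the 8 transcripts. Removing the GC and length trend left differences of 0.83 ± 0.09 for diet in B6, 0.39 ± 0.09 for strain on chow, -0.39 ± 0.09 for strain on high-fat diet and -0.78 ± 0.13 between responses, all past the threshold. None of these passed with the Mir6236 covariate, where they were 0.38 (adjusted p = 0.475), 0.13 (adjusted p = 0.796), 0.09 with the sign turned (adjusted p = 0.740) and -0.04 (adjusted p = 0.993).

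Slc37a4 (chr9:44397095-44402968, plus strand), the glucose-6-phosphate transporter, rose with high-fat diet in both strains. Its lowest, median and highest values were 275, 714 and 1167 in B6 chow and 385, 1155 and 1638 in B6 high-fat liver, a difference of 0.70 ± 0.11 (adjusted p = 5.86e-07). In 129 they were 375, 1111 and 1532 on chow and 745, 1262 and 1584 on high-fat diet, a difference of 0.38 ± 0.11 (adjusted p = 0.0127). Time by time, the B6 diets did not overlap at any of the 6 times, with high-fat liver higher at 5 and lower at ZT22, where chow read 896, 1167 and 989 and high-fat diet 837, 842 and 385. In 129 they did not overlap at 3 times, all higher on high-fat diet. The largest difference lay at ZT2 in both strains. There the B6 libraries read 663, 275 and 365 on chow and 1006, 1000.4 and 888 on high-fat diet, and the 129 libraries 707, 477 and 375 on chow and 1172, 1263 and 1172 on high-fat diet. The difference between the strains in this response did not pass (-0.33 ± 0.16, adjusted p = 0.103), although it did when B6 chow ZT2 replicate 1 (adjusted p = 0.0411) or B6 high-fat ZT22 replicate 3 (adjusted p = 0.0388) was left out. On chow Slc37a4 was 0.48 ± 0.11 higher in 129 (adjusted p = 0.000397). With the GC and length trend removed the diet differences were 0.30 ± 0.08 in B6 and 0.28 ± 0.08 in 129, both past the threshold, and the strain difference on chow was 0.18 (adjusted p = 0.0731). With the Mir6236 covariate the B6 diet difference was 0.24 (adjusted p = 0.546), that in 129 was 0.46 (adjusted p = 0.00121) and the strain difference on chow was 0.17 (adjusted p = 0.555).

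Fbp1 (chr13:62864753-62888282, minus strand) varied least among the 8. Its lowest, median and highest values were 2241, 3533 and 5362 in B6 chow, 3521, 4752 and 6860.4 in B6 high-fat, 3142, 4360.0 and 5041 in 129 chow and 3249.9, 4565 and 5467 in 129 high-fat liver. It rose with diet in B6 by 0.47 ± 0.07 (adjusted p = 3.27e-08), and was higher at 5 of 6 times but lower at ZT22. In 129 the difference was 0.09 ± 0.07 (adjusted p = 0.396), and the responses differed by -0.38 ± 0.09 (adjusted p = 0.00157). Fbp1 was 0.27 ± 0.07 higher in 129 than in B6 on chow (adjusted p = 0.000478). With the GC and length trend removed these differences were 0.27 for diet in B6, -0.32 between responses and 0.18 for strain on chow, all past the threshold. With the Mir6236 covariate it was the single enzyme whose B6 diet difference passed (0.40 ± 0.12, adjusted p = 0.0264), while the difference between responses (-0.30, adjusted p = 0.667) and the strain difference on chow (0.23, adjusted p = 0.0924) did not.

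Tat (chr8:109990436-109999804, plus strand), which starts tyrosine breakdown and is a textbook glucocorticoid target, was the only enzyme of the 8 that fell with high-fat diet in both strains. Its lowest, median and highest values were 2081, 5508 and 11975 in B6 chow against 1922, 3350.4 and 6099 in B6 high-fat liver, and 1732, 8264 and 19287 in 129 chow against 1906, 4842 and 8444 in 129 high-fat liver. The sets overlapped at the low end, and the highest chow libraries lay far above the highest high-fat library of the same strain. Tat fell by -0.58 ± 0.18 in B6 (adjusted p = 0.00378), lower at 5 of 6 times, and by -0.82 ± 0.18 in 129 (adjusted p = 0.000474), lower at 6 of 6 times. The difference between the strains in this response did not pass (-0.24 ± 0.25, adjusted p = 0.467). On chow Tat was 0.65 ± 0.18 higher in 129 at 6 of 6 times (adjusted p = 0.00176). On high-fat diet the strain difference was 0.41 ± 0.18 (adjusted p = 0.0639), which passed on leaving out any of 10 libraries. Tat has 49.6% GC, and with the GC and length trend removed the diet differences in B6 and 129 and the strain difference on chow were -0.54, -0.89 and 0.70, all past the threshold. The B6 fall was -0.88 ± 0.31 with the Mir6236 covariate (adjusted p = 0.0864), under which the strain difference on chow was 0.45 (adjusted p = 0.264), and -0.47 ± 0.22 without the libraries numbered replicate 2 (adjusted p = 0.0733).

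Got1 (chr19:43499753-43524605, minus strand) had the largest strain difference of the 8 on chow, next to Pcx. Its lowest, median and highest values were 223, 665 and 1862 in B6 chow and 747, 1541 and 2764 in 129 chow, a difference of 1.14 ± 0.21 (adjusted p = 9.05e-06), which passed also with the GC trend removed (1.02) and with the Mir6236 covariate (0.87 ± 0.29, adjusted p = 0.0328). Diet moved it by 0.21 ± 0.21 in B6 (adjusted p = 0.390) and by -0.53 ± 0.21 in 129 (adjusted p = 0.0619), where it was lower at 6 of 6 times and passed on leaving out any of 6 libraries. With the GC trend removed the difference in 129 was -0.65 ± 0.19 (adjusted p = 0.00911). The responses of the strains differed by -0.74 ± 0.29 (adjusted p = 0.0427), and this call was lost on leaving out any of 30 of the 72 libraries singly (adjusted p between 0.0115 and 0.0726 over all 72). It was also lost with the GC trend removed (-0.66, adjusted p = 0.0756) and with the Mir6236 covariate (-0.27, adjusted p = 0.931).

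Pck1 (chr2:173153073-173159274, plus strand) and G6pc (chr11:101367716-101377903, plus strand), the enzymes most often used as readouts of gluconeogenesis, had no diet difference past the threshold in either strain when averaged over the day. For Pck1 the means were 5161 ± 3009 and 5848 ± 1863 in B6 chow and high-fat liver (0.32 ± 0.16, adjusted p = 0.0835) and 8285 ± 6066 and 6604 ± 3747 in 129 (-0.16 ± 0.16, adjusted p = 0.588). The B6 difference passed on leaving out B6 high-fat ZT2 replicate 2 (adjusted p = 0.0329) or ZT6 replicate 1 (adjusted p = 0.0423). For G6pc they were 2216 ± 593 and 2656 ± 1258 in B6 (0.11 ± 0.18, adjusted p = 0.618) and 2888 ± 1414 and 2902 ± 1179.9 in 129 (0.03 ± 0.18, adjusted p = 0.935). On chow Pck1 was 0.55 ± 0.16 higher in 129 than in B6 when averaged over the day (adjusted p = 0.00477), and higher at 5 of 6 times. At ZT22 the difference was -1.09, with 2732, 2466 and 2746 in 129 chow and 6933, 5041 and 5146 in B6 chow. The average was 0.36 (adjusted p = 0.0626) with the GC trend removed and 0.51 (adjusted p = 0.165) with the Mir6236 covariate. The G6pc strain difference on chow was 0.28 ± 0.18 (adjusted p = 0.175), and 0.45 (adjusted p = 0.0396) with that trend removed.

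Per kilobase of transcript, Tat, Fbp1 and Pck1 stood at the top in each wild-type set and Pcx, Gpt, Slc37a4 and Got1 below G6pc. In B6 chow the mean level per kilobase was 2466 ± 1172 for Tat, 2423 ± 588 for Fbp1 and 1966 ± 1146 for Pck1, which did not differ beyond their spread. G6pc followed at 984 ± 263, then Got1 at 396 ± 235, Slc37a4 at 299 ± 123, Gpt at 243 ± 132 and Pcx at 179 ± 122, neighbours that lay within 1 SD of each other from Got1 down. In B6 high-fat liver Pcx (579 ± 149.9) and Gpt (585 ± 120.5) stood above Slc37a4 (469 ± 147) and Got1 (411 ± 141).

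The daily course was tested as a 24 h cosine in each set, where the amplitude is the log2 distance from the mean to the peak of the fitted curve. On chow, 3 of 8 enzymes had a daily rhythm in B6 (6.16% of all genes) and 5 of 8 in 129 (47.8% of all genes). On high-fat diet the counts were 1 of 8 in B6 (4.08%) and 1 of 8 in 129 (7.04%). These counts depend on the cosine shape. With time as 6 levels by limma, Pcx (adjusted p = 0.0145), Tat (0.0138), Gpt (0.0226) and Got1 (0.0293) also passed in B6 chow. There 2916 of the 11287 genes passed. G6pc then also passed in 129 chow (adjusted p = 0.0209) and in B6 high-fat liver (0.0193), but not in 129 high-fat liver (0.132). The median amplitude of the 8 was 0.47 in B6 chow, 0.18 in B6 high-fat, 0.75 in 129 chow and 0.40 in 129 high-fat liver, against 0.22, 0.18, 0.38 and 0.18 over all genes. The clock gene Dbp peaked at 11.3 h, 9.7 h, 11.6 h and 10.4 h in these sets, and Per2 at 15.5 h, 13.9 h, 16.8 h and 15.3 h. In 129 chow the GC slope itself followed the time of day, from -0.54 at ZT2 and -0.40 at ZT6 to 0.62 at ZT18 and 0.54 at ZT22. The 129 chow rhythms are therefore also given with that trend removed. With it removed the Pck1 amplitude there was 1.17. The GC slope of B6 chow libraries also differed between times, with means of -0.38 at ZT2, -0.80 at ZT6 and -0.14 at ZT10. At ZT14, ZT18 and ZT22 the means were -0.59, -0.70 and 0.05.

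**Figure D3:**
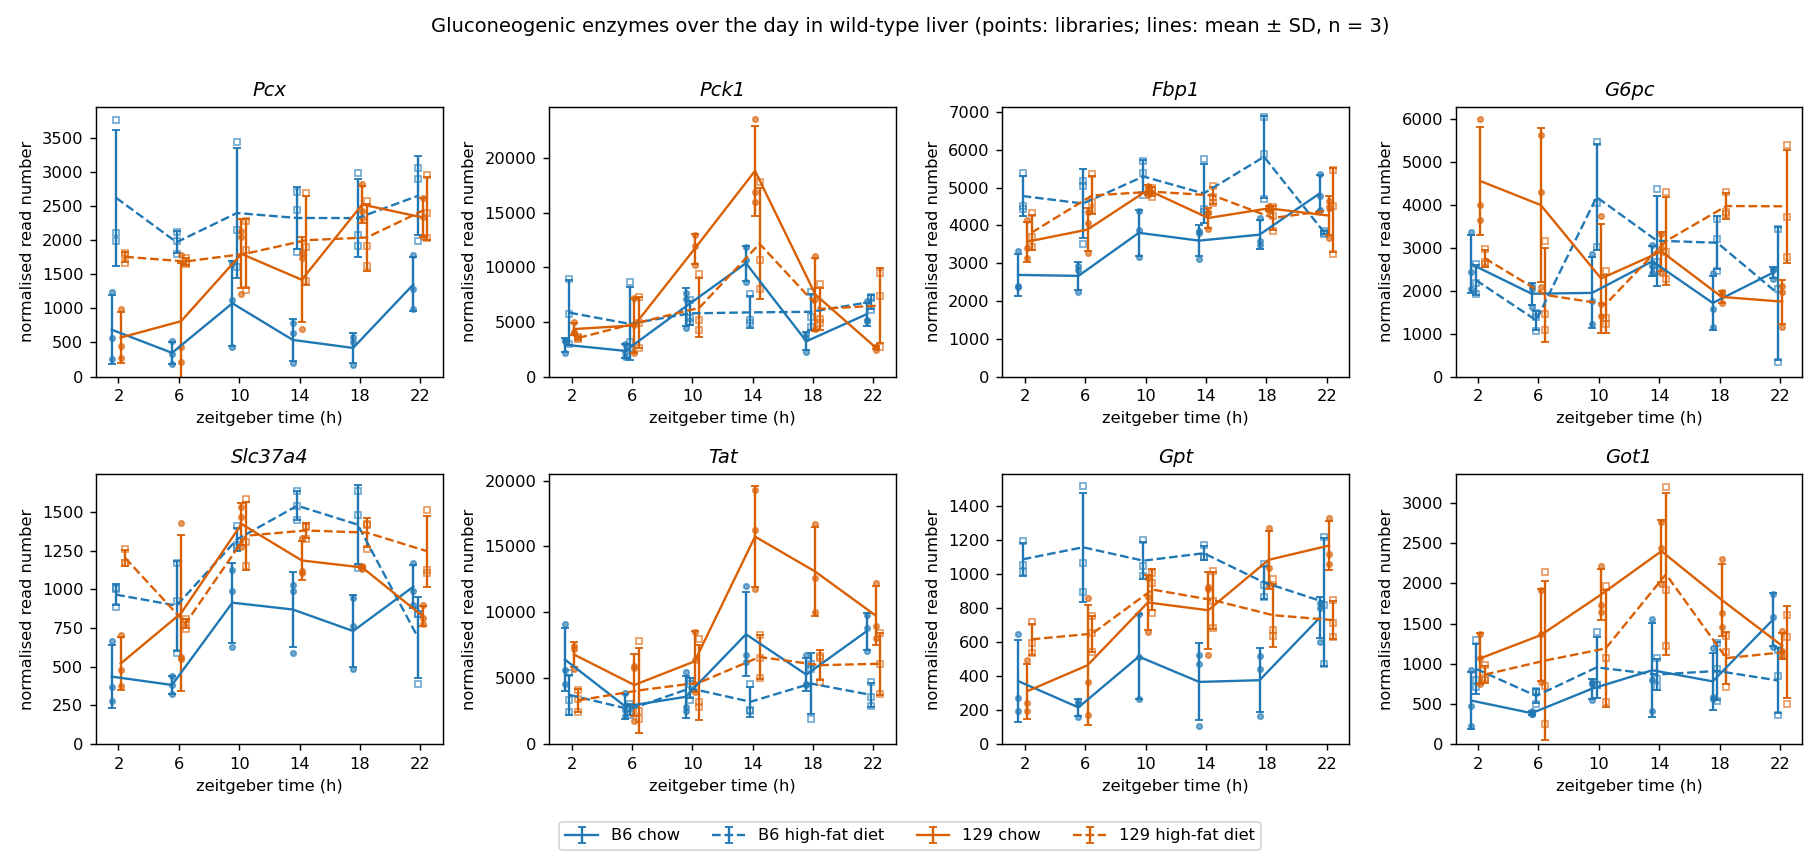
Normalised read number of each enzyme (y axis) against zeitgeber time in hours (x axis) in the 4 wild-type sets, with 1 point per library and lines of mean ± SD (n = 3). Pck1 peaks at ZT14 in both chow sets, highest in 129 chow at 15973 to 23597, and is nearly flat in B6 high-fat liver.

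On chow, Pck1 had the largest fold between its highest and lowest time of the 8 enzymes in both strains. In B6 chow it read 10625, 11843 and 8673 at ZT14 and 1779.5, 3008 and 2253 at ZT6. In 129 chow it read 15973, 23597 and 16925 at ZT14 and 2732, 2466 and 2746 at ZT22. In both chow sets the highest and lowest times did not overlap, at a fold of 4.42 between their means in B6 and 7.11 in 129. Since these times were picked from the same values, the gap is a description and not a test. The fitted amplitude was 0.72 ± 0.19 with a peak at 14.5 h in B6 chow (adjusted p = 0.0371), lost when any library of ZT6 or ZT14 or ZT2 replicate 1 was left out (7 in all, adjusted p up to 0.104), and 1.25 ± 0.19 with a peak at 12.8 h in 129 chow (adjusted p = 3.69e-06). On high-fat diet the time means of Pck1 in B6 lay between 4822 and 6835, with an amplitude of 0.22 ± 0.19 (adjusted p = 0.911). In 129 high-fat liver the ZT14 libraries read 17840.2, 8009 and 10625, and the amplitude of 0.65 ± 0.19 did not pass (adjusted p = 0.0719). It passed with the GC trend removed (adjusted p = 0.0484) and on leaving out 129 high-fat ZT6 replicate 3 (adjusted p = 0.0465), ZT18 replicate 1 (adjusted p = 0.0490) or ZT22 replicate 3 (adjusted p = 0.0421). The change of the Pck1 rhythm with diet did not pass in B6 (0.65, adjusted p = 0.568) or in 129 (0.74, adjusted p = 0.233).

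Slc37a4 passed the rhythm test in 3 of the 4 wild-type sets. Its amplitude was 0.56 ± 0.14 with a peak at 16.2 h in B6 chow (adjusted p = 0.0174), 0.52 ± 0.14 at 13.3 h in B6 high-fat (adjusted p = 0.0420) and 0.64 ± 0.14 at 13.7 h in 129 chow (adjusted p = 0.000627). In 129 high-fat liver it was 0.30 ± 0.14 (adjusted p = 0.457). The B6 chow call was lost on leaving out B6 chow ZT2 replicate 2 (adjusted p = 0.0673), ZT6 replicate 2 (adjusted p = 0.0528) or ZT6 replicate 3 (adjusted p = 0.0583). The B6 high-fat call was lost with any of 12 libraries, most with ZT22 replicate 3 (0.44, adjusted p = 0.103), whose value of 385 was the lowest of that set. With the GC trend removed all 3 rhythms passed, at amplitudes of 0.65, 0.51 and 0.50. Fbp1 had a shallower rhythm in B6 chow only, of 0.30 ± 0.08 with a peak at 17.7 h (adjusted p = 0.0327), which was lost with any of 8 libraries (adjusted p up to 0.122).

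Tat, Gpt and Pcx had their fitted peaks in the dark phase in 129 chow liver. Tat read 11725, 19287 and 16217 at ZT14 and 1732, 5781 and 5905 at ZT6, with an amplitude of 0.90 ± 0.18 and a fitted peak at 17.4 h (adjusted p = 0.000315), and 1.02 with the GC trend removed. Pcx had an amplitude of 1.07 ± 0.25 with a peak at 17.0 h (adjusted p = 0.00152), and Gpt one of 0.87 ± 0.20 at 16.8 h (adjusted p = 0.00142). With the GC trend removed these were 0.60 and 0.46, both past the threshold, and with the Mir6236 covariate both were 0.26 and did not pass. Got1 did not pass in 129 chow (0.58 ± 0.21, adjusted p = 0.0552). In B6 chow, Tat just missed the threshold (0.65 ± 0.18, peak at 19.7 h, adjusted p = 0.050), and it passed on leaving out any of 18 libraries and with the Mir6236 covariate (adjusted p = 0.0448).

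G6pc releases the glucose. In 129 on chow its highest time was ZT2, with values of 3999.9, 5995 and 3652, and its lowest ZT22, with 1161, 1957 and 2113. In 129 high-fat liver it read 4304, 3822 and 3774 at ZT18 and 1366, 1225 and 2456 at ZT10. The ranges of the highest and the lowest time did not overlap in either set. These times were picked from the same values, so this is no test of a daily course. The amplitude was 0.49 ± 0.19 with a peak at 5.3 h on chow (adjusted p = 0.0846), 0.28 (adjusted p = 0.474) with the GC trend removed and 0.16 (adjusted p = 0.887) with the Mir6236 covariate, and 0.71 ± 0.19 with a peak at 19.8 h on high-fat diet (adjusted p = 0.0357), a call lost with any of 9 libraries (adjusted p up to 0.113). The change of rhythm with diet in 129 was 1.14 (adjusted p = 0.0454), which made G6pc 1 of 8 enzymes to pass, where 1.26% of all genes passed. That call was lost on leaving out any of 30 of the 72 libraries, with any replicate number left out, with the GC trend removed (0.97, adjusted p = 0.0920), with the Mir6236 covariate (0.80, adjusted p = 0.713), with time as 6 levels (adjusted p = 0.0573) and with no filter on low values (adjusted p = 0.0941). Pck1 (0.0332), Pcx (0.0357), Gpt (0.0404) and Slc37a4 (0.0488) also had an unadjusted p below 0.05 by the limma F test of this change in 129. In B6, 0 of 8 enzymes passed this test by limma, 2 of them at an unadjusted p below 0.05 (G6pc 0.0368 and Fbp1 0.0460), where 0.0532% of all genes passed. With time as 6 levels in place of a cosine, Fbp1 (adjusted p = 0.00931) and Slc37a4 (adjusted p = 0.0136) changed their course with diet in B6. Between strains 0 of 8 rhythms differed on chow (13.1% of all genes) and 0 of 8 on high-fat diet (0.0443%). On chow Pcx (0.0136) and Gpt (0.0478), and on high-fat diet G6pc (0.00245), had an unadjusted p below 0.05. With 6 levels Pck1 (adjusted p = 0.0272) and Pcx (adjusted p = 0.0452) differed between strains on chow.

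**Figure D4:**
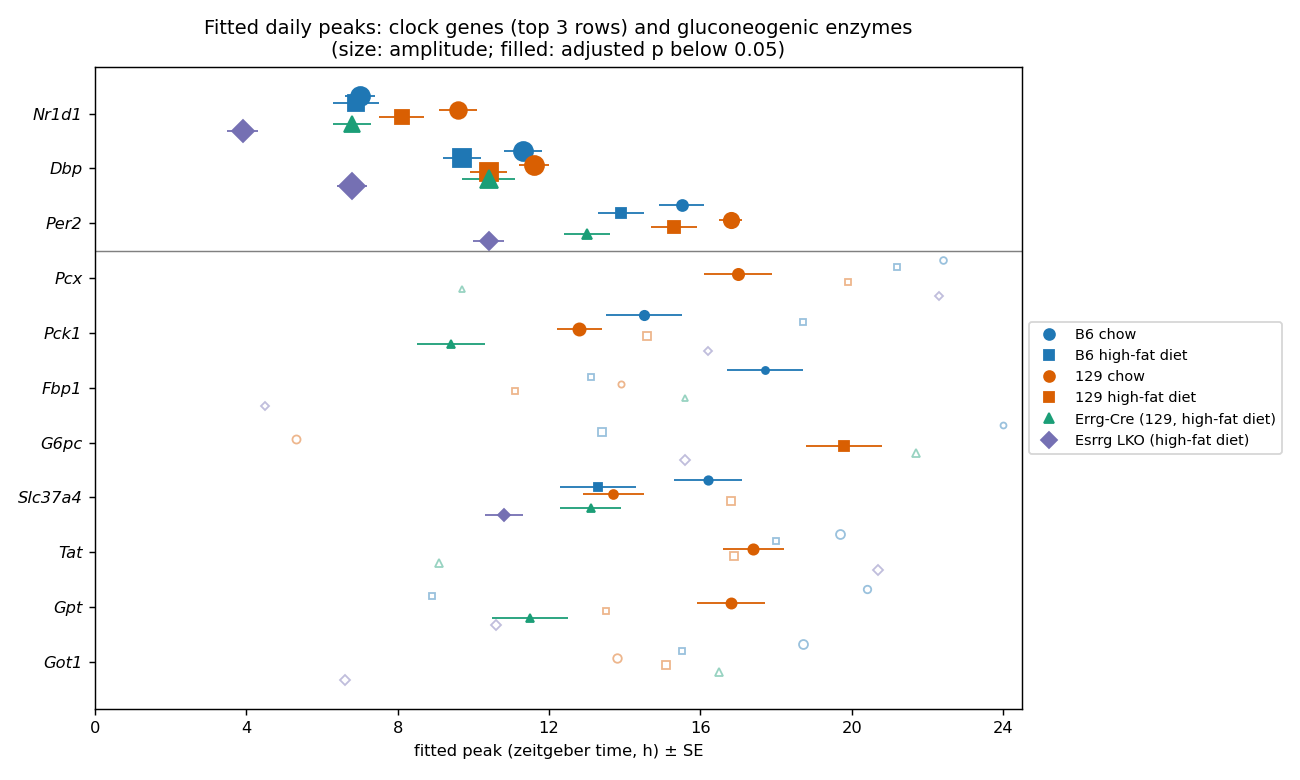
Fitted peak in hours of zeitgeber time (x axis, bars of 1 SE) for 3 clock genes and the 8 enzymes (y axis) in all 6 sets, with marker size for amplitude and filled markers where the rhythm passed. Slc37a4 passes in 5 sets at peaks between 10.8 h and 16.2 h, earliest in Esrrg LKO liver, where Nr1d1, Dbp and Per2 also sit earliest.

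In Errg-Cre liver (129, high-fat diet) 3 of 8 enzymes had a daily rhythm, against 17.9% of all genes, and in Esrrg LKO liver 1 of 8, against 6.09%. Esrrg itself, the targeted gene, read between 8.23 and 62.0 (median 25.9) in Errg-Cre and between 7.64 and 39.4 (median 16.4) in Esrrg LKO libraries, and reads over a whole transcript do not show whether a deleted part is missing. In Errg-Cre liver Pck1 read 24986, 16168 and 26879 at ZT10 and 4924, 10939 and 7721 at ZT18, with an amplitude of 0.66 ± 0.16 and a peak at 9.4 h (adjusted p = 0.0217). Gpt (0.40 ± 0.11, peak at 11.5 h, adjusted p = 0.0378) and Slc37a4 (0.31 ± 0.07, peak at 13.1 h, adjusted p = 0.0142) also passed, Gpt not with the GC trend removed (adjusted p = 0.0734). With time as 6 levels only Slc37a4 passed (adjusted p = 0.0472). In replicate 3 of ZT6 and of ZT10 the clock genes stood apart from the other replicates. At ZT10 Arntl read 13.6, 15.4 and 206 and Dbp 395, 475 and 39.3 in replicates 1, 2 and 3. At ZT6 Arntl read 23.7, 14.5 and 259.8 and Dbp 407, 531 and 28.2. The ZT10 library held the highest Pck1 value of the set, 26879. Both libraries entered the rhythm fit, and why they differ was not tested.

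In Esrrg LKO liver Slc37a4 had the clearest rhythm of any enzyme there. It read 433, 505 and 478 at ZT2, its lowest time, and 1001, 1281 and 1201 at ZT10, its highest. The fold between the means of these times, picked from the same values, was 2.46. The amplitude was 0.60 ± 0.08 with a peak at 10.8 h (adjusted p = 0.000221). Dbp peaked at 6.8 h and Per2 at 10.4 h in this set, and at 9.7 h and 13.9 h in wild-type B6 high-fat liver, where Slc37a4 peaked at 13.3 h. These sets come from separate tables and the shift was not tested. Pck1 in Esrrg LKO liver had time means between 7163 and 11089.5, and its amplitude of 0.06 ± 0.13 did not pass (adjusted p = 0.957). Its highest libraries there, 18293 at ZT22 and 16316 at ZT10, were the same libraries in which Tat was highest (10068 and 7579).

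**Figure D5:**
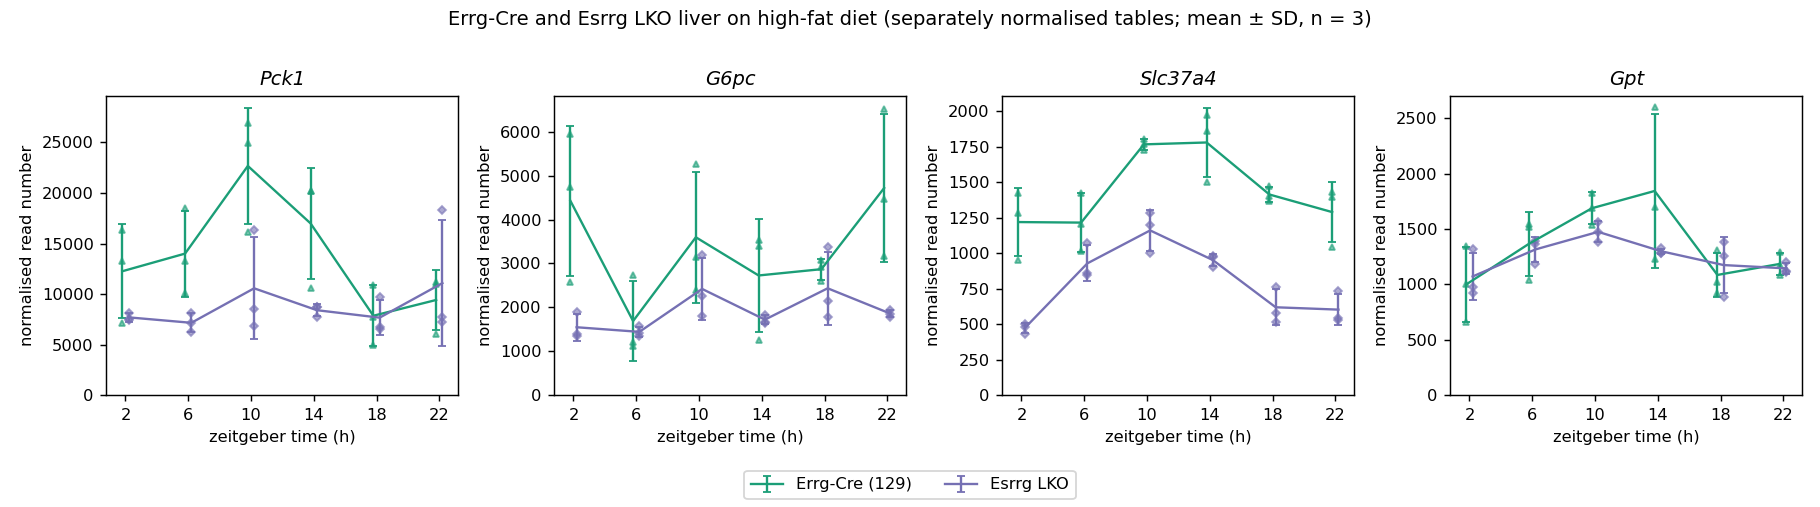
Normalised read number (y axis) against zeitgeber time in hours (x axis) for Pck1, G6pc, Slc37a4 and Gpt in Errg-Cre and Esrrg LKO liver, with 1 point per library and lines of mean ± SD (n = 3). Slc37a4 is lowest at ZT2 and highest at ZT10 in Esrrg LKO liver, while heights cannot be compared between the separately normalised sets.

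Other genes of the pathway were followed in lists of their own, to be read against the share of all genes, which was 27.5% higher and 32.7% lower with diet in B6 and 10.9% higher and 7.45% lower in 129. Of 7 enzymes that serve both glycolysis and gluconeogenesis, 6 rose and 0 fell with diet in B6, and 0 of 7 passed in 129 by limma, where Eno1 came nearest (adjusted p = 0.0542). Gapdh rose by 1.36 ± 0.23, Eno1 by 1.09, Tpi1 by 1.01 and Gpi1 by 0.83 in B6, and 5 of 7 responses differed between strains, all lower in 129 (Gapdh -1.40), where 34.4% of all genes differed. With the GC trend removed 5 of 7 rose in B6. Under the Mir6236 covariate 0 of 7 rose in B6 and 0 of 7 responses differed.

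Of 26 genes of substrate entry, shuttles and carriers, 17 rose and 4 fell with diet in B6 and 9 rose and 3 fell in 129. In B6 5 rose and 1 fell with the Mir6236 covariate. Ldha, which turns lactate into pyruvate, rose in both, from 1726 ± 439.8 to 3988 ± 641 in B6 (1.23 ± 0.09) and from 1642 ± 419.7 to 2661 ± 433 in 129 (0.73 ± 0.09), at 6 of 6 times in each. The dicarboxylate carrier Slc25a10 (1.42), the glutamine carrier Slc38a3 (1.37) and proline dehydrogenase Prodh (1.22) also rose in B6, and in 129 glycerol kinase Gk (0.67), the glucose transporter Slc2a2 (0.49) and Prodh (0.44) did. On chow, serine dehydratase Sds (1.34) and the tyrosine pathway enzyme Hpd (1.27) were higher in 129. In 129 chow liver 21 of 26 genes of this list had a daily rhythm, where 47.8% of all genes had one. In B6 chow, B6 high-fat and 129 high-fat liver 8, 4 and 3 of 26 had one, against 6.16%, 4.08% and 7.04% of all genes.

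Of 6 enzymes that run the opposite way, in glycolysis or its control, 3 rose and 0 fell with diet in B6, and 3 rose and 1 fell in 129. Pyruvate kinase Pklr rose by 0.48 in B6 and 0.84 in 129, and phosphofructokinase Pfkl rose by 1.52 in B6. In 129 Pfkfb1 rose by 0.58 and Pfkfb3 fell by -1.08, both of them enzymes that set the level of the phosphofructokinase activator fructose-2,6-bisphosphate. With the GC trend removed 2 rose and 1 fell in B6, without Pklr (0.16, adjusted p = 0.460), and with the Mir6236 covariate 0 rose and 0 fell.

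Among 22 tested genes of hormone and transcription control, 7 rose and 6 fell with diet in B6, shares close to those of all genes, and 1 rose and 5 fell in 129. The values of single members follow as a description. The glucagon receptor Gcgr rose from 308 ± 135 to 755 ± 118 in B6 (1.40 ± 0.14), and its response was lower in 129 by -1.08. The repressor Nr0b2 (1.98), the receptor Esrra (1.62) and Esrrg (0.92) rose in B6, and Esrrg rose in 129 (0.78). Foxo1, an activator of Pck1 and G6pc that insulin restrains, fell in both strains (-0.76 and -0.45), as did the coactivator Ppargc1a (-0.57 and -0.48) and the kinase Sik1 (-0.63 and -0.91). With the Mir6236 covariate 0 rose and 1 fell in B6.

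Over the 24 wild-type group means, Pcx and Gpt ran together (Pearson r = 0.94), Fbp1 went with Slc37a4 (0.83) and Gpt (0.82), and Tat and Got1 had 0.69, while G6pc reached at most 0.27 with any member. The genes most like each member by this measure were Etfb, Acads and Hgfac for Pcx (each 0.98), Tst, Ndufb7 and Apoe for Gpt (0.98, 0.98 and 0.97), Dgat2, 1810055G02Rik and Slc25a38 for Slc37a4 (0.90, 0.89 and 0.89) and Sfxn5, Aldh1b1 and Dcxr for Fbp1 (0.88, 0.86 and 0.86). Tat was most like Sik1 (0.89), Klf3 and Fbl, Got1 most like Mrps5 (0.85), Sds and Gm5424, and Pck1 most like Fh1 (0.84), Susd6 and Gne. G6pc had no close match, its nearest being Mettl2 at 0.61. These are descriptions over means that share libraries and, for Pcx and Gpt, the GC slope of the libraries.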

How the data were processed

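The deposited tables give a signal per RefSeq transcript: read numbers that the authors quantile-normalised within each table, per the file names and per the labels. STAR, HOMER and mm10 are named in the submitters' processing notes, with no version given. Versions, strand setting and depth are not given in the sources used here. RNA was total liver RNA made into TruSeq libraries, per the labels' protocols. In the 3 tables of 42361 transcripts all libraries of a table had identical sorted values, and 18 columns that match no label were not used.

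The transcript with the highest mean stood for a symbol, and genes with a mean of at least 10 were kept (11287 wild-type, 11622 Errg-Cre and 11946 Esrrg LKO); all 8 enzymes passed in each table. Log2(value + 1) was fitted with limma 3.58.1 in R 4.3.3 (group means, moderated tests with a trend) and p-values were adjusted by Benjamini-Hochberg over all genes kept, with a threshold of 0.05. Differences refer to this log2 scale, which understates changes of low genes. Level contrasts average 6 times; rhythms are a 24 h cosine tested by a moderated F test. Diet, strain and rhythm differences in wild-type liver came from 1 fit of 72 libraries, and the other tables were fitted alone. The scripts were tested on simulated data. Length came from the tables and GC content from GENCODE transcripts matched by RefSeq accession or, failing that, by symbol, and promoter sequences from a RefSeq table of GRCm38.p6, in which 7 of 8 members matched.

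The members and lists were chosen with earlier results of these data known. All 8 enzymes were named, with at most 4 passing genes per list and comparison by size and the 3 genes most like each enzyme. Alternatives were another pseudocount, filters, transcript choice, replicates or libraries left out, a Mir6236 covariate, a GC and length correction, fewer sets, robust estimation, time as 6 levels and a replicate block. The alternative without B6 high-fat ZT22 replicate 3, and the GC, Mir6236 and single-library alternatives for rhythms, were chosen after seeing the data. For 1 gene of the lists, values are not reported here.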

Additional observations from a re-analysis of the deposited data

Results flagged for a closer look

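For 4 enzymes the response to high-fat diet differed between 129 and B6 liver by the limma interaction test: Pcx (-1.37, adjusted p = 0.000578), Gpt (-1.32, adjusted p = 0.000112), Fbp1 (-0.38, adjusted p = 0.00157) and Got1 (-0.74, adjusted p = 0.0427). The Pcx and Gpt differences stand beside unequal GC slopes of the B6 chow libraries (-0.43 ± 0.46) and the B6 high-fat libraries (0.19 ± 0.13), and with that trend removed they were -0.84 and -0.78 and passed, as did Fbp1 (-0.32, adjusted p = 0.0257) but not Got1 (-0.66, adjusted p = 0.0756). With the Mir6236 covariate 0 of 8 enzymes passed: Pcx was at 0.17 (adjusted p = 0.955), Gpt at -0.04 (adjusted p = 0.993), Fbp1 at -0.30 (adjusted p = 0.667) and Got1 at -0.27 (adjusted p = 0.931). The Got1 call was also lost on leaving out any of 30 libraries.

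The daily course of G6pc differed between the diets in 129 by the limma F test (1.14, adjusted p = 0.0454). This call was lost with the GC trend removed (0.97, adjusted p = 0.0920), with the Mir6236 covariate (0.80, adjusted p = 0.713), with time as 6 levels (adjusted p = 0.0573), with any replicate number left out (adjusted p between 0.200 and 0.653) and on leaving out any of 30 single libraries.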

How the results depend on the processing

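Of 35 calls among 120 values (8 enzymes, 15 results), pseudocount 10, a minimum mean of 50, the longest transcript and robust estimation lost 0 by limma. No replicate pairing was found (same-numbered libraries correlated at 0.00 on average, 31 of 72 best with their own number). A replicate block changed 0 of 120 verdicts, with 5 enzymes past the threshold for diet in B6 and 6770 genes in all. With 1 replicate number left out, enzymes passing ranged from 0 to 4 for diet in 129, 0 to 1 for strain on high-fat diet, 2 to 4 for the interaction, 0 to 0 for the rhythms in B6 chow, B6 high-fat and Errg-Cre and for the rhythm change in 129, 3 to 5 for the rhythm in 129 chow and 0 to 1 in 129 high-fat liver.

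The Mir6236 covariate left 1 enzyme for diet in B6, 1 for strain on chow, 2 for strain on high-fat diet, 0 for the interaction, 3 for the 129 chow rhythm and 0 for the rhythm change in 129; over all genes it left 565, 1446, 3358, 14, 1665 and 11. No filter on low values left 0 for strain on high-fat diet, 1 for the B6 chow rhythm, 0 for the B6 and 129 high-fat rhythms, 0 for the rhythm change in 129 and 1 for Errg-Cre. Time as 6 levels gave 7 in B6 chow, 2 in B6 high-fat, 0 in 129 high-fat, 2 for the change in B6, 0 in 129, 2 between strains on chow and 1 in Errg-Cre. GC removal gave 2 for the 129 high-fat rhythm and 0 for the change in 129, and 1981 genes for the interaction. Only the 2 sets compared gave 2 for strain on high-fat diet, and leaving out B6 high-fat ZT22 replicate 3 gave 0 for its rhythm. The cause was not tested.

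Signs turned for 14 values, none past the threshold after the change. With the Mir6236 covariate these were Got1 for diet in B6 (-0.19), Pcx (0.38) and Gpt (0.09) for strain on high-fat diet, and Pcx (0.17), Tat (0.11) and Slc37a4 (0.22) in the interaction. With GC removed they were G6pc (-0.03) and Fbp1 (-0.04) for diet in 129. With 1 replicate number left out the range crossed 0 for G6pc (-0.07 to 0.22, with -0.06 without replicate 1) and Pck1 (-0.29 to 0.08) for diet in 129, Pck1 (-0.12 to 0.31) and G6pc (-0.04 to 0.41) for strain on high-fat diet and G6pc (-0.21 to 0.13) in the interaction.

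Over all genes, counts moved by more than 1.5 times as follows, besides the Mir6236 values above. Without replicate 2, diet in 129 called 556 genes (2071 with all), strain on high-fat diet 2077 (3647), the interaction 1296 (3881; 2063 without replicate 3) and the 129 chow rhythm 2160 (5395). With 1 replicate number left out, rhythm calls were 162 to 398 in B6 chow (695; 2916 with 6 levels), 140 to 223 in B6 high-fat (461; 785), 235 to 508 in 129 high-fat (795), 368 to 495 in Errg-Cre (2076; 1319; 1201 unfiltered) and 166 to 481 in Esrrg LKO (727; 433). Rhythm changes called 0 genes in B6 (6; 407 with 6 levels; 14 without the 3 sparse libraries), 0 to 11 in 129 (142; 31 unfiltered; 281 without those libraries), 8 to 930 between strains on chow (1476; 839 unfiltered; 657 with GC removed; 77 with Mir6236) and 0 to 1 on high-fat diet (5; 9 without those libraries; 2 without the ZT22 library). Depth is unknown, so no limit from depth could be given.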
